A study of Homo sapiens with 6 samples.

Results

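The comparison of venetoclax plus cyclosporine A with cyclosporine A alone asked which transcripts differed when venetoclax was added to MV4-11 cells that already received cyclosporine. It rests on 4 of the 6 libraries: 2 of the combination and 2 of cyclosporine. The members are all 20263 genes of the count table, of which 12565 had enough counts in these 4 libraries to be tested. The table was sequenced deeply, at 27183108 and 30738957 counts in the cyclosporine libraries and 29861849 and 27056975 in the combination libraries. RNA was profiled after 24 h in culture.

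Both groups were MV4-11 cells, an established human line of monocytic acute myeloid leukemia in which FLT3 has an internal tandem duplication and KMT2A is fused. The labels give the genotype as WT. The protocol gives 100 nM for venetoclax (VEN) and 2.5 µM for cyclosporine A (CSA), and states no separate doses for the combination. Cyclosporine was thus common to all 4 libraries. Nothing in the labels says that the 2 libraries of a group came from separate cultures, so the p-values here measure only how much these samples vary, and that variation may be technical.

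Venetoclax occupies the groove of the survival protein BCL2 and frees BH3-only proteins that can then activate BAX and BAK at the mitochondrion. Cyclosporine A binds cyclophilins, and the complex blocks the phosphatase calcineurin, which otherwise lets NFAT factors enter the nucleus. Stress on mitochondria or on the amino acid supply is known to raise translation of ATF4, a factor that switches on genes of amino acid import and synthesis. Sterol supply is watched by SREBP factors, which drive the genes of cholesterol and fatty acid synthesis, and oxygen and growth signals set the level of glycolytic genes.

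The libraries carried the markers of the labelled line. None of 12 myeloid and leukemia marker genes was at 0, and their summed level was 2328 and 2414 CPM (counts scaled to library size, corrected by the trimmed mean of M-values, TMM) with CSA and 2283 and 2339 with the combination. FLT3, the receptor kinase of this leukemia, was the highest of them, at 933 and 941 CPM with CSA and 968 and 930 CPM with the combination. CD14 was near 0, with a highest value of 0.325 CPM. T and NK cell genes summed to between 20.3 and 26.3 CPM with CD3D, CD3E, CD3G, CD2 and KLRD1 at 0, and 10 of 14 erythroid and megakaryocyte genes were at 0. B cell genes summed to 8.03 and 7.30 CPM with CSA and 4.58 and 4.48 CPM with the combination, with EBF1 at 0. Stromal and epithelial genes summed to between 105 and 127 CPM, of which PECAM1 gave most. Transcripts of the mitochondrial genome took 7.41% and 9.71% of the counts with CSA and 8.06% and 15.2% with the combination, so combination replicate 2 was the highest of the 4.

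Of the 12565 genes tested, 24 (0.191%) passed an adjusted p of 0.05 in edgeR's quasi-likelihood test with Benjamini-Hochberg adjustment. Higher in the combination were 13 genes (0.103%) and lower were 11 (0.0875%). At an unadjusted p under 0.05 there were 806 higher (6.41%) and 733 lower (5.83%), and the median log2 fold change over all genes was -0.00, with 49.6% of genes above 0 and 50.4% below. The groups did not overlap for 2981 genes higher in both combination libraries (23.7%) and 2947 lower in both (23.5%). In the text, rose and fell are kept for the 24 genes that passed. Log2 fold changes are the combination minus CSA, each with a standard error (SE) and n = 2 libraries a group. The SE was derived as the absolute log2 fold change divided by the square root of the test's F statistic.

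CREB3L2 had the smallest p of all genes tested. It encodes a transcription factor of the endoplasmic reticulum (ER) membrane that is released by cleavage, and lies on chromosome 7 at 137874979 to 138002067 on the minus strand (GRCh38, GENCODE 29). Its level was 132 and 147 CPM with CSA and 28.5 and 28.7 CPM with the combination. The combination libraries were close to each other and far below both CSA libraries. CREB3L2 fell by 2.29 on the log2 scale (SE 0.10, edgeR adjusted p = 0.0252), which is 4.88-fold lower.

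MDM2, a ubiquitin ligase, lies on chromosome 12 at 68808176 to 68850686. Its level was 63.8 and 62.5 CPM with CSA and 13.5 and 15.8 CPM with the combination, without overlap. MDM2 fell by 2.11 (SE 0.12, edgeR adjusted p = 0.0252). PPARA, the nuclear receptor that fatty acids activate, is on chromosome 22 at 46150521 to 46243756. It was at 17.8 and 18.0 CPM with CSA and 2.73 and 1.65 CPM with the combination, a fall of 3.02 on the log2 scale (SE 0.26, edgeR adjusted p = 0.0445). Both combination libraries were far below both CSA libraries for PPARA.

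LDHA, the lactate dehydrogenase subunit that favours making lactate from pyruvate, was the most abundant of the genes that passed. It is on chromosome 11 at 18394388 to 18408425 and was counted at 725 and 687 CPM with CSA and 299.6 and 251 CPM with the combination. LDHA fell by 1.36 on the log2 scale (SE 0.12, edgeR adjusted p = 0.0445). LDHB, the other main subunit, gave overlapping values of 754 and 821 CPM with CSA and 840 and 709 CPM with the combination.

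Other genes that fell encode proteins of varied roles. UBE2Z, a ubiquitin-conjugating enzyme, was at 121 and 117 CPM with CSA and 34.2 and 35.9 CPM with the combination (log2 fold change -1.76, SE 0.09). RASAL2, which speeds the hydrolysis of GTP by Ras, was at 52.1 and 54.9 CPM with CSA and 17.2 and 17.0 CPM with the combination (log2 fold change -1.65, SE 0.10). CLEC2D, the ligand of an inhibitory receptor of natural killer cells, was at 30.1 and 29.3 CPM with CSA and 9.52 and 9.70 CPM with the combination (log2 fold change -1.63, SE 0.12). Replicates of each of these genes lay closer together than the groups. YIPF6, a Golgi membrane protein, fell by 1.56 (SE 0.12), and the zinc finger genes ZNF875 and ZNF548 fell by 1.88 (SE 0.14) and 1.72 (SE 0.13).

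BCL2L2 was the gene of the BCL2 family that passed. It encodes BCL-w, a survival protein, and lies on chromosome 14 at 23298790 to 23311759. Its level was 2.97 and 2.46 CPM with CSA and 30.2 and 24.7 CPM with the combination. Both combination libraries were far above both CSA libraries, and BCL2L2 rose by 3.34 on the log2 scale (SE 0.19, edgeR adjusted p = 0.0252), or 10.1-fold.

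The next genes that rose encode secreted or membrane proteins. CHI3L1, a secreted chitinase-like glycoprotein of myeloid cells, was at 183 and 191 CPM with CSA and 402 and 448 CPM with the combination (log2 fold change 1.18, SE 0.09). TGOLN2, a protein that cycles through the trans-Golgi network, was at 79.0 and 71.2 CPM with CSA and 271 and 232 CPM with the combination (log2 fold change 1.74, SE 0.12). THBS1, a matrix glycoprotein, was at 17.3 and 14.1 CPM with CSA and 52.0 and 47.2 CPM with the combination (log2 fold change 1.66, SE 0.14). In all 3 genes the combination libraries lay above CSA, by 2.27-fold in CHI3L1, 3.35-fold in TGOLN2 and 3.16-fold in THBS1. SEMA6B, a membrane-bound semaphorin, rose by 1.75 (SE 0.15) and LGR4, a receptor for R-spondins, rose by 1.38 (SE 0.12).

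CYP1B1, a cytochrome P450 that the aryl hydrocarbon receptor AHR switches on, is on chromosome 2 at 38066973 to 38109902. It was at 7.03 and 6.16 CPM with CSA and 21.1 and 24.1 CPM with the combination, and rose by 1.78 (SE 0.15, edgeR adjusted p = 0.0445). XPO4, a carrier of nuclear export, was at 98.1 and 94.2 CPM with CSA and 224 and 221 CPM with the combination (log2 fold change 1.21, SE 0.08). RNF114, a ubiquitin ligase, rose by 1.65 (SE 0.14) and PCNP, a small nuclear protein, rose by 1.69 (SE 0.13).

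**Figure D1:**
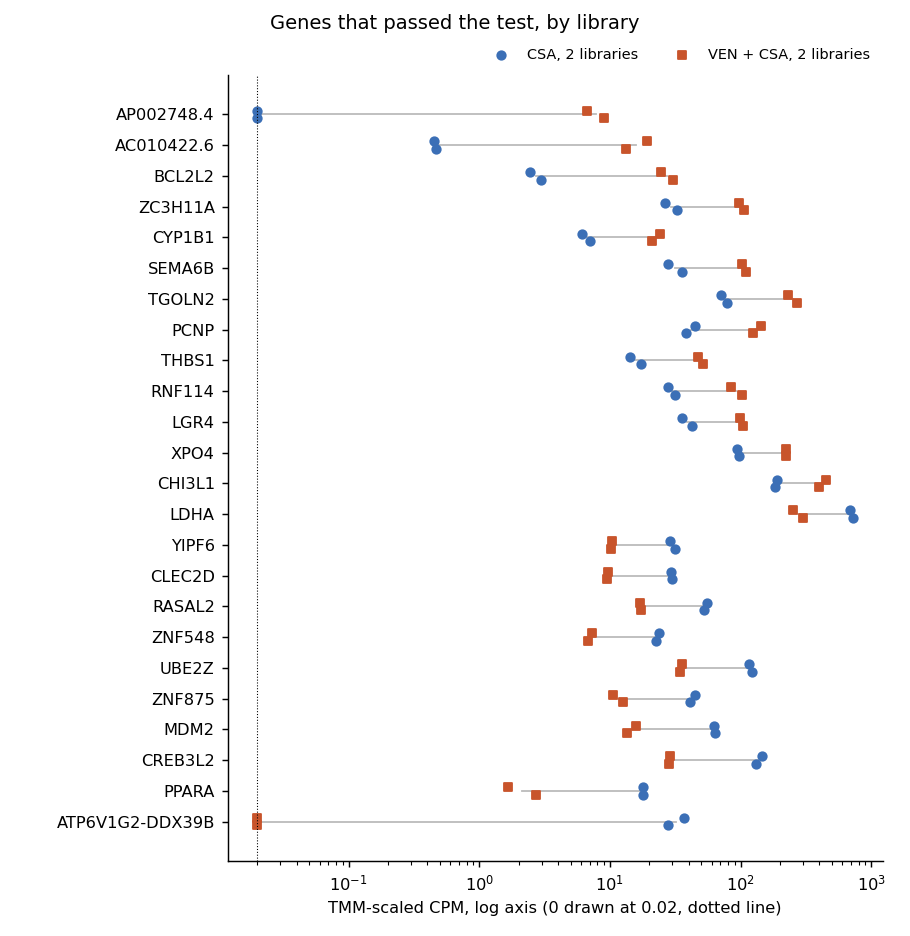
TMM-scaled CPM (log axis) of the 24 genes that passed, 1 point per library, by group. For each gene the combination libraries lie on 1 side of both CSA libraries, and ATP6V1G2-DDX39B and AP002748.4 are at 0 in 1 group.

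**Figure D2:**
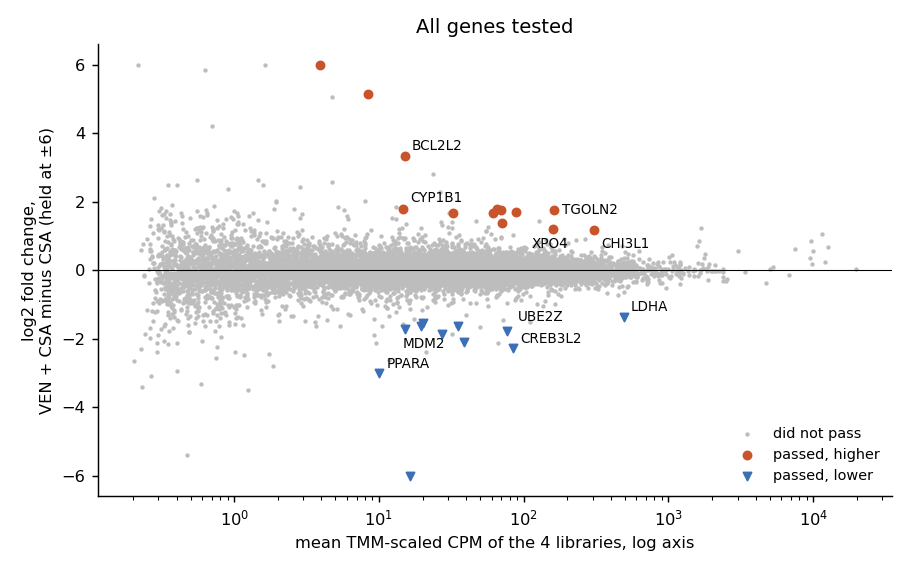
Log2 fold change of the combination minus CSA (held at ±6) against the mean TMM-scaled CPM of the 4 libraries (log axis) for the 12565 genes tested. The 13 genes that rose and the 11 that fell are marked over a cloud centred on 0. Many genes that did not pass lie as far from 0, as 345 genes had an absolute log2 fold change above 1. LDHA and CHI3L1 are the most abundant labelled genes.

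The number of genes that passed depended on single libraries. It was 4 without CSA replicate 1, 10 without CSA replicate 2, 110 without combination replicate 1 and 67 without combination replicate 2. All 24 genes kept their direction in these 4 fits. Their groups did not overlap, so leaving out 1 library could hardly have reversed it. Most of the 24 did not pass in every one of these fits. For CREB3L2 the log2 fold change ran from -2.36 to -2.21 in these fits.

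The 2 venetoclax libraries did not enter the test, and they place these genes against the other single agent. After scaling over all 6 libraries, 15 of the 24 genes had both venetoclax libraries on the CSA side of both combination libraries, 6 had 1 of them there and 3 had neither. The 24 were chosen for a difference between combination and CSA, which bears on these counts, and no share over all genes was taken. The CSA side includes values near the combination: ZC3H11A was at 54.7 and 80.5 CPM with venetoclax, 30.0 and 24.2 CPM with CSA and 97.9 and 90.5 CPM with the combination. LDHA was at 739 and 639 CPM with venetoclax alone, CREB3L2 at 119.6 and 105 CPM, CYP1B1 at 5.69 and 6.95 CPM and THBS1 at 14.9 and 14.3 CPM, all on the CSA side. BCL2L2 was at 24.8 and 16.4 CPM with venetoclax alone, which is closer to the combination than to CSA. MDM2 differed between the venetoclax libraries, at 64.2 and 28.7 CPM, and so did TGOLN2, at 73.2 and 446 CPM. Venetoclax replicate 2, the second value in each pair, had 41.5% of its counts from the mitochondrial genome. XPO4 and LGR4 had neither venetoclax library on the CSA side, at 219.5 and 295 CPM for XPO4 and 108 and 133 CPM for LGR4.

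Some of the 24 genes share exons with a neighbour on the same strand, where the counting could assign a read to either gene. This held for 6 of the 24 (25%), against 11.6% of all genes tested, and included the 4 of highest fold among those that rose. ZC3H11A, a zinc finger protein of mRNA export on chromosome 1 at 203795654 to 203854999, shares 11983 exonic bases with ZBED6, a gene that lies inside it. ZC3H11A was at 32.5 and 26.2 CPM with CSA and 106 and 97.8 CPM with the combination. ZBED6 moved the other way, at 156 and 169 CPM with CSA and 48.7 and 66.1 CPM with the combination (log2 fold change -1.50, SE 0.17, edgeR adjusted p = 0.0896). The sum of both genes was 188 and 196 CPM with CSA and 155 and 164 CPM with the combination, and did not pass (log2 fold change -0.27, SE 0.08, edgeR adjusted p = 0.351).

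ATP6V1G2-DDX39B, a read-through transcript on chromosome 6 at 31530219 to 31546608, was at 28.1 and 37.1 CPM with CSA and had 0 counts in both combination libraries. The total was 1927 counts against 0, at least 615-fold lower when the combination group is set to a floor of 3 counts in all. It also had 0 counts in both venetoclax libraries. DDX39B, the RNA helicase gene it overlaps by 2079 bases, was at 172 and 157 CPM with CSA and 214 and 202 CPM with the combination. Summed over the locus the values were 201 and 195 CPM with CSA and 215 and 203 CPM with the combination, and the sum did not pass (log2 fold change 0.08, SE 0.08, edgeR adjusted p = 0.697).

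A gene with the identifier ENSG00000256349 (AP002748.4) showed the opposite picture, with 0 counts in both CSA libraries and 447 counts in the combination, at least 156-fold higher against 3 counts over the group. Its neighbour BBS1, a gene of primary cilia with which it shares 3311 bases, was at 7.85 and 9.53 CPM with CSA and 3.38 and 3.81 CPM with the combination. The locus sum was 103 and 101 CPM with CSA and 106 and 85.8 CPM with the combination (log2 fold change -0.09, SE 0.13, edgeR adjusted p = 0.784). Most of this sum came from DPP3, another gene of the locus, which shares 236 bases with AP002748.4. DPP3 was at 95.4 and 91.4 CPM with CSA and 94.1 and 75.4 CPM with the combination. ENSG00000269693 (AC010422.6), at 0.466 and 0.454 CPM with CSA and 13.3 and 19.2 CPM with the combination, shares 3015 bases with the zinc finger gene ZNF490. ZNF490 was at 10.6 and 11.0 CPM with CSA and 5.04 and 4.48 CPM with the combination, and the sum of the 10 linked genes did not pass (log2 fold change 0.16, SE 0.10, edgeR adjusted p = 0.541).

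BCL2L2 itself shares 813 bases with the read-through gene BCL2L2-PABPN1, and through it with PABPN1, the abundant nuclear poly(A)-binding protein gene. BCL2L2-PABPN1 was at 4.84 and 5.03 CPM with CSA and 5.10 and 7.54 CPM with the combination. PABPN1 was at 160.5 and 170 CPM with CSA and 160.4 and 152 CPM with the combination. The locus sum did not pass (log2 fold change 0.14, SE 0.09, edgeR adjusted p = 0.530), and PABPN1 supplied most of it. The sum at ZNF548, with 8 linked genes, was 64.3 and 55.9 CPM with CSA and 42.2 and 42.2 CPM with the combination (log2 fold change -0.51, SE 0.11, edgeR adjusted p = 0.242). When all overlapping genes were summed, 18 of 11790 loci passed, and these were the 18 genes with no such overlap.

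**Figure D3:**
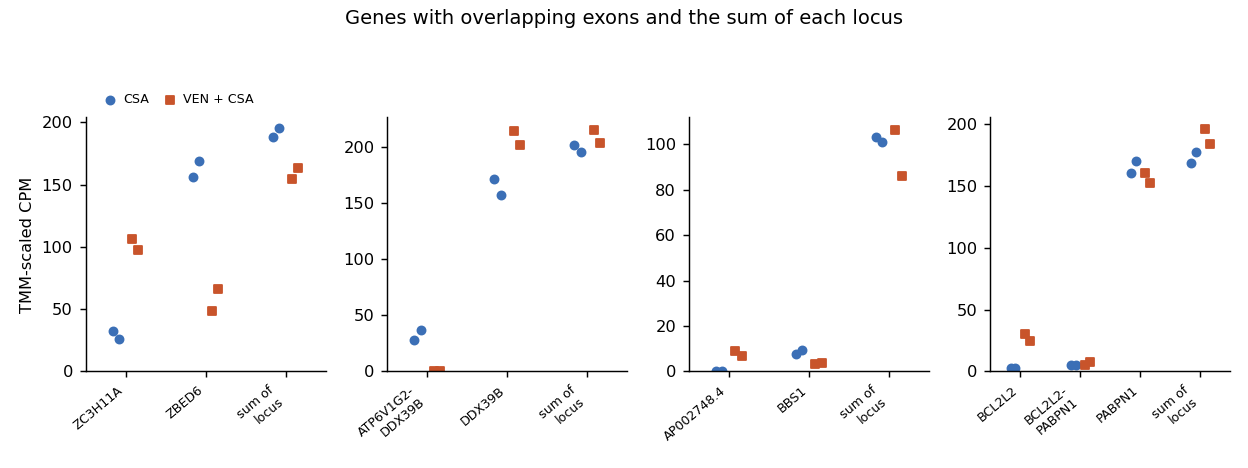
TMM-scaled CPM of ZC3H11A, ATP6V1G2-DDX39B, AP002748.4 and BCL2L2, of chosen neighbours in each locus, and of the locus sum, 1 point per library. AC010422.6 and ZNF548, which also passed and share same-strand exons with a neighbour, are not drawn, nor is DPP3. ZC3H11A and ZBED6 move in opposite directions, and no locus sum passed.

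Genes in 51 lists were then read from the same fit. The lists held 857 different tested genes, of which 7 passed: CREB3L2, MDM2, PPARA, LDHA, BCL2L2, CYP1B1 and THBS1. All other list members are given as values. For each list, the shares of 6.41% higher and 5.83% lower at an unadjusted p under 0.05 over all genes, and 23.7% and 23.5% without overlap, are the background. DESeq2, the alternative test, called 1.30% of the 11347 genes to which it gave an adjusted p higher and 1.21% lower, and its counts in the lists are read against these shares.

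The targets of ATF4 serve amino acid import and synthesis and one-carbon metabolism. Of 36 tested, 32 were higher and 4 lower, with a median log2 fold change of 0.34. None passed, 14 were higher and 1 lower at an unadjusted p under 0.05, and 22 were higher in both combination libraries. DESeq2 called 10 of them higher and 0 lower. SLC7A11, the cystine importer, was at 48.7 and 46.8 CPM with CSA and 95.7 and 88.7 CPM with the combination (log2 fold change 0.95, SE 0.10, edgeR adjusted p = 0.0697). ASNS, asparagine synthetase, was at 97.5 and 103 CPM with CSA and 193 and 174 CPM with the combination (log2 fold change 0.88, SE 0.10, edgeR adjusted p = 0.0871). In both genes the combination libraries were nearly 2-fold above CSA and well apart from it.

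PSAT1, an enzyme of serine synthesis, was at 293 and 287 CPM with CSA and 511 and 447 CPM with the combination (log2 fold change 0.73, SE 0.10, edgeR adjusted p = 0.126). MTHFD2, of the mitochondrial folate pathway, was at 308 and 296 CPM with CSA and 449 and 410 CPM with the combination (log2 fold change 0.51, SE 0.09). VEGFA, a secreted growth factor that also answers to low oxygen, was at 35.1 and 38.2 CPM with CSA and 68.9 and 61.6 CPM with the combination. These 3 genes also had groups that did not overlap. ALDH1L2 and SLC1A4 gave log2 fold changes of 0.79 (SE 0.13) and 0.57 (SE 0.09).

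Members that mark cell stress and death are given next. PPP1R15A, which restores translation by removing phosphate from eIF2-alpha, was at 91.4 and 93.6 CPM with CSA and 122 and 132 CPM with the combination (log2 fold change 0.46, SE 0.09). DDIT3, which encodes CHOP, was at 11.5 and 9.73 CPM with CSA and 14.1 and 12.8 CPM with the combination (log2 fold change 0.35, SE 0.15). CHAC1, which degrades glutathione, was at 10.4 and 9.34 CPM with CSA and 10.7 and 20.3 CPM with the combination, so 1 combination library stood apart (log2 fold change 0.65, SE 0.33). The groups overlapped for ATF3 (log2 fold change -0.12, SE 0.22) and TRIB3 (log2 fold change 0.27, SE 0.49). ATF4 itself, which is controlled largely in translation, was at 520 and 521 CPM with CSA and 610 and 614 CPM with the combination (log2 fold change 0.23, SE 0.08).

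The cytosolic tRNA synthetases join amino acids to their tRNAs, and several are known ATF4 targets. Of 20, 16 were higher and 4 lower, with a median of 0.23, and 9 were higher and 1 lower at an unadjusted p under 0.05. None passed, and DESeq2 called CARS1, GARS1 and NARS1 higher. GARS1, for glycine, was at 391 and 427 CPM with CSA and 579 and 597 CPM with the combination (log2 fold change 0.52, SE 0.09). CARS1, for cysteine, was at 101 and 98.8 CPM with CSA and 139 and 146 CPM with the combination (log2 fold change 0.51, SE 0.08). VARS1, for valine, lay on the other side, at 325 and 296 CPM with CSA and 269 and 236 CPM with the combination.

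The promoters of these lists were searched for TGATGNAA, the core of the CARE element that ATF4 binds with C/EBP partners, on both strands, in the RefSeq window of 250 bases before to 50 after each start (GRCh38.p14). The motif was in 3.67% of all promoters and 1.75% of those of tested genes. It was in 5 of the 28 matched ATF4 targets and 6 of the 16 matched tRNA synthetases. A match is a description of letters and not a binding site. Shown are the matches upstream of the start in ASNS, CHAC1, AARS1 and IARS1, with the motif in capitals, 5′ to 3′ on the gene's strand. TTGCATCA is a match on the opposite strand.
ASNS, chr7:97872459-97872486, minus strand: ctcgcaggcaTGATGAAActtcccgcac
CHAC1, chr15:40953252-40953279, plus strand: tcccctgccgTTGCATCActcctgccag
AARS1, chr16:70289676-70289703, minus strand: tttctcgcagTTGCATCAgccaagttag
IARS1, chr9:92293698-92293720, minus strand: tttcagcgcgTTGCATCAcctcc
The matches begin 68 bases before the start in ASNS, 209 in CHAC1, 187 in AARS1 and 13 in IARS1. AARS1, for alanine, was at 350 and 323 CPM with CSA and 427 and 375 CPM with the combination. IARS1, for isoleucine, was at 486 and 507 CPM with CSA and 584 and 578 CPM with the combination. Their log2 fold changes of 0.25 (SE 0.10) and 0.23 (SE 0.08) were lower than that of ASNS. An upstream match that is not shown begins 191 bases before the start in ATF3, which gave -0.12 (SE 0.22) with overlap between groups.

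All 20 genes of cholesterol synthesis, the pathway from acetyl-CoA to cholesterol, were lower, with a median of -0.35. None passed, 9 were lower at an unadjusted p under 0.05, 13 were lower in both combination libraries, and DESeq2 called ACAT2, LSS and DHCR7 lower. LSS, which closes the sterol rings, was at 42.7 and 42.6 CPM with CSA and 24.0 and 20.7 CPM with the combination (log2 fold change -0.93, SE 0.12, edgeR adjusted p = 0.120). DHCR7, the last step to cholesterol in one branch, was at 46.1 and 37.0 CPM with CSA and 21.5 and 21.4 CPM with the combination (log2 fold change -0.95, SE 0.14, edgeR adjusted p = 0.150). ACAT2, at the start of the pathway, was at 65.4 and 66.3 CPM with CSA and 48.3 and 46.9 CPM with the combination (log2 fold change -0.47, SE 0.09). The groups of these 3 genes did not overlap.

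Of 11 genes of cholesterol uptake and control, 9 were lower and 2 higher, with 6 lower and 1 higher at an unadjusted p under 0.05. The median was -0.24, and -0.38 without combination replicate 1. INSIG1, which holds SREBP in the ER, was at 73.8 and 69.6 CPM with CSA and 47.0 and 50.3 CPM with the combination (log2 fold change -0.56, SE 0.10). SREBF2, the SREBP gene that favours sterol targets, was at 340 and 329 CPM with CSA and 294 and 274 CPM with the combination. STARD4, a sterol carrier, was at 15.1 and 15.4 CPM with CSA and 9.78 and 11.0 CPM with the combination. All 3 were lower in both combination libraries.

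SREBF2 was the 1 gene among 10 matched promoters of uptake and control with TCACNCCAC, the sterol regulatory element, which 1.15% of all promoters and 1.08% of those of tested genes hold. It was in 0 of 15 matched promoters of cholesterol synthesis and 0 of 11 of fatty acid synthesis, which says only that these letters are not in these windows. The match in SREBF2 begins 133 bases before the start and is shown because the gene is a known target of its own protein.
SREBF2, chr22:41832962-41832990, plus strand: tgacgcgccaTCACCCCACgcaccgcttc

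Fatty acid synthesis had 9 of 12 genes lower, with a median of -0.33 and 6 lower and 1 higher at an unadjusted p under 0.05. SCD, which desaturates fatty acids, was at 463 and 469 CPM with CSA and 289 and 294 CPM with the combination (log2 fold change -0.68, SE 0.08, edgeR adjusted p = 0.0896). FASN, the fatty acid synthase, was at 624 and 583 CPM with CSA and 468 and 396 CPM with the combination (log2 fold change -0.48, SE 0.11). DESeq2 called both lower. ME1, the malic enzyme, which is also an NRF2 target, lay on the other side, at 2.69 and 3.18 CPM with CSA and 6.72 and 4.99 CPM with the combination.

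The list of fatty acid oxidation and PPARA targets lay on both sides of 0. Of its 16 genes 9 were higher and 7, PPARA among them, lower, with a median of 0.07 that was 0.11 without combination replicate 1. At an unadjusted p under 0.05 there were 3 higher and, with PPARA itself, 1 lower. CPT1A, which brings fatty acids into mitochondria, was at 240 and 240 CPM with CSA and 356 and 335 CPM with the combination (log2 fold change 0.52, SE 0.08, edgeR adjusted p = 0.160). PLIN2, a coat protein of lipid droplets, was at 44.1 and 41.2 CPM with CSA and 60.2 and 60.4 CPM with the combination (log2 fold change 0.50, SE 0.10). DESeq2 called CPT1A and PLIN2 higher. ANGPTL4, a secreted inhibitor of lipoprotein lipase, was low and on the other side, at 0.645 and 0.875 CPM with CSA and 0.227 and 0.432 CPM with the combination (log2 fold change -1.22, SE 0.50).

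**Figure D4:**
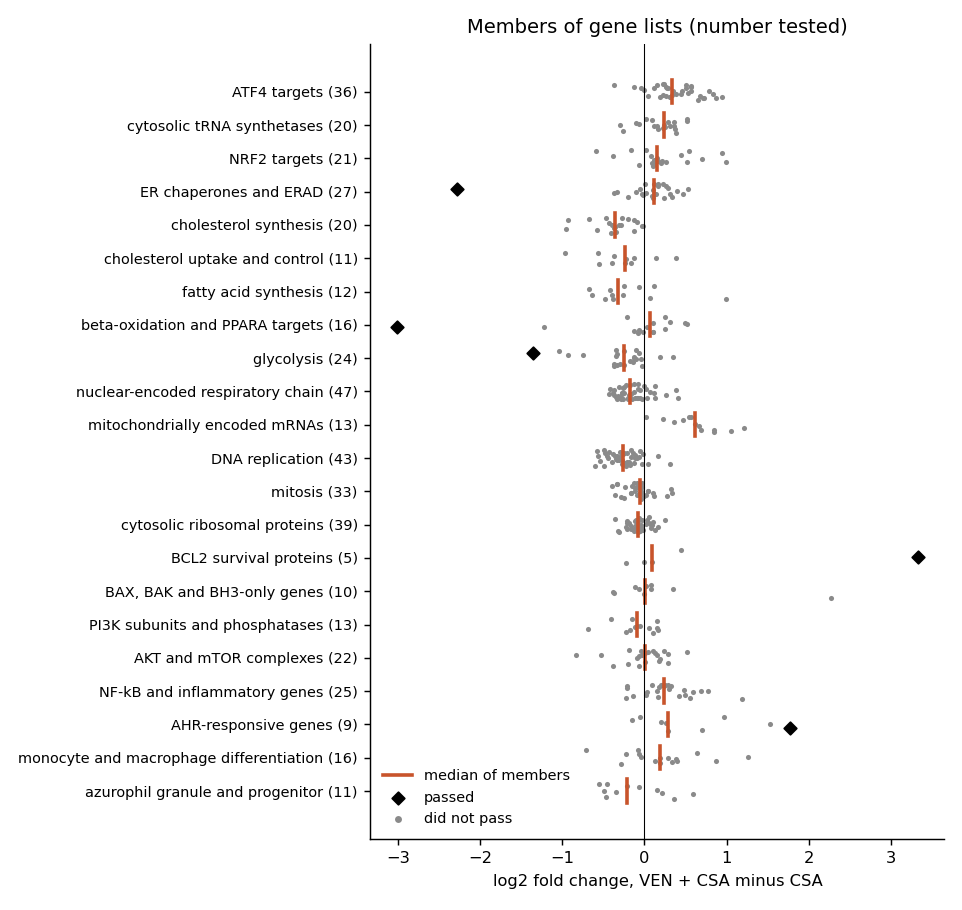
Log2 fold change, combination minus CSA, of every tested member of 22 gene lists (1 point per gene, black diamonds passed, red bars are list medians). The points of cholesterol synthesis lie at or below 0 and most ATF4 targets above it, and the diamonds are single members.

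Glycolysis turns glucose into pyruvate and, through LDHA, lactate. Of 24 genes 22 were lower and 2 higher, with a median of -0.25. LDHA passed, 9 were lower at an unadjusted p under 0.05, 16 were lower in both combination libraries, and DESeq2 called 5 lower. ALDOC, an aldolase isoform, was at 77.0 and 74.9 CPM with CSA and 33.8 and 39.9 CPM with the combination (log2 fold change -1.05, SE 0.12, edgeR adjusted p = 0.0896). PFKFB4, which sets fructose 2,6-bisphosphate, was at 31.6 and 32.7 CPM with CSA and 18.1 and 15.7 CPM with the combination (log2 fold change -0.93, SE 0.13, edgeR adjusted p = 0.127). ENO2, an enolase isoform, was at 20.9 and 17.4 CPM with CSA and 11.9 and 10.9 CPM with the combination. These genes and LDHA had fold changes well beyond the rest of the list, where GAPDH, at 5312 and 5238 CPM with CSA and 4030 and 4161 CPM with the combination, gave -0.37 (SE 0.10).

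**Figure D5:**
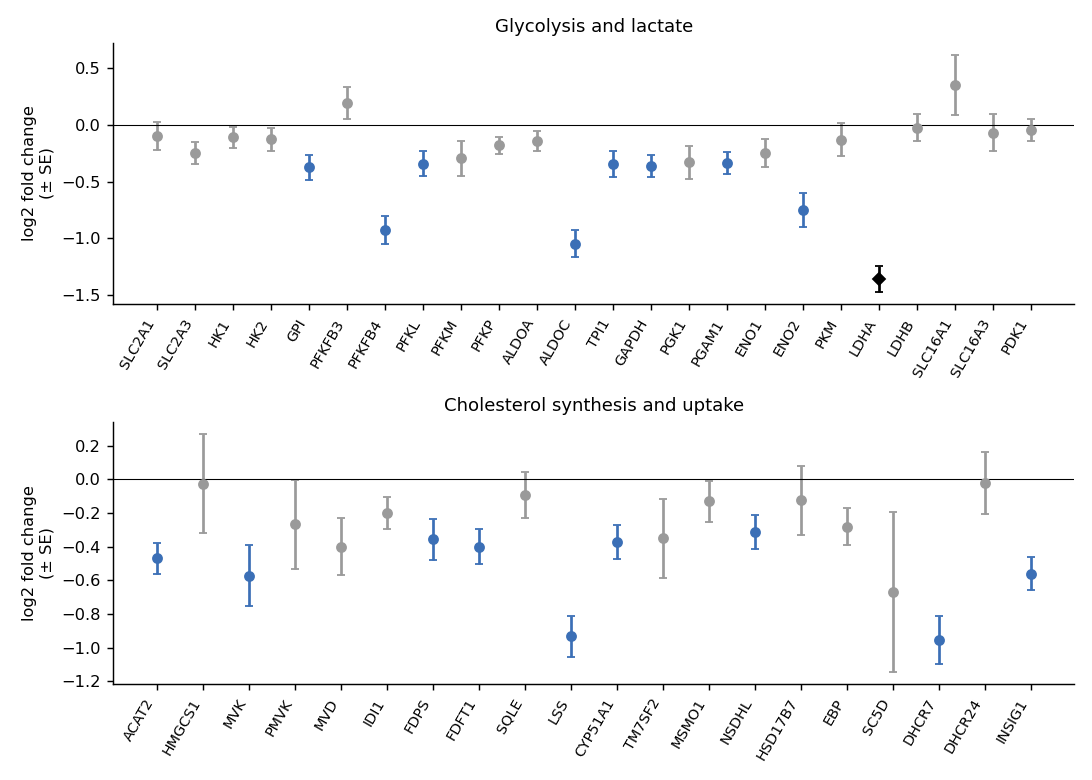
Log2 fold change (combination minus CSA, bars ± SE, n = 2 libraries a group) of glycolysis genes and of cholesterol genes, roughly in pathway order (black diamond: passed, blue: lower at an unadjusted p under 0.05, grey: neither). LDHA at -1.36 is the lowest glycolysis gene, and DHCR7 and LSS are near -1 among the cholesterol genes.

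The hypoxia-responsive genes, many of which answer to HIF1A, gave 5 of 13 higher and 8 lower, and the median of -0.18 ranged from -0.27 to 0.01 over the alternatives. NDRG1, a stress gene of differentiation, was at 112 and 117 CPM with CSA and 67.4 and 67.9 CPM with the combination (log2 fold change -0.76, SE 0.09, edgeR adjusted p = 0.0902). BNIP3L, a receptor of mitophagy, was at 80.2 and 80.5 CPM with CSA and 56.3 and 56.9 CPM with the combination (log2 fold change -0.51, SE 0.09). HIF1A itself gave 0.20 (SE 0.16). VEGFA, described above, is also in this list and lay on the other side.

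Of 47 nuclear genes of the respiratory chain 37 were lower and 10 higher, with a median of -0.17, which was -0.32 without combination replicate 1 and -0.07 without combination replicate 2. At an unadjusted p under 0.05, 3 were lower and 2 higher. The 13 mRNAs of the mitochondrial genome were all higher, with a median of 0.62, and none was at an unadjusted p under 0.05. Combination replicate 2 set this value: the median was 0.02 without it and 1.00 without combination replicate 1. Of 19 genes of the TCA cycle 12 were lower, with a median of -0.09 that was -0.01 without combination replicate 1.

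The genes of DNA replication were mostly lower. Of 43, 40 were lower and 3 higher, with a median of -0.26. None passed, 19 were lower and 0 higher at an unadjusted p under 0.05, and 33 were lower in both combination libraries. DESeq2 called 8 lower. TYMS, thymidylate synthase, was at 94.9 and 91.6 CPM with CSA and 61.7 and 63.2 CPM with the combination (log2 fold change -0.58, SE 0.09). LIG1, which joins Okazaki fragments, was at 196 and 181 CPM with CSA and 131 and 119 CPM with the combination (log2 fold change -0.60, SE 0.10). MCM5, of the replicative helicase, was at 430 and 421 CPM with CSA and 326 and 323 CPM with the combination (log2 fold change -0.39, SE 0.08). Each of the 3 was lower in both combination libraries.

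Mitotic genes stood nearer to 0. Of 33, 25 were lower and 8 higher, with a median of -0.06 (-0.11 without combination replicate 2 and 0.00 without combination replicate 1), and 4 were lower and 1 higher at an unadjusted p under 0.05. MKI67, the proliferation marker, was at 751 and 859 CPM with CSA and 538 and 685 CPM with the combination (log2 fold change -0.40, SE 0.15). Among 16 G1/S cyclins and inhibitors 10 were lower (median -0.11, and -0.02 without combination replicate 1), with E2F2, an activating E2F factor, at -0.61 (SE 0.17) and CDKN1A, an inhibitor of cyclin-dependent kinases, at 0.40 (SE 0.18). Of 10 replication-dependent histone genes 9 were lower, with a median of -0.27 that was -0.55 without combination replicate 2. Purine synthesis had 9 of 12 lower, with a median of -0.09 that was -0.17 without combination replicate 1 and -0.06 without combination replicate 2. Genes of MYC and ribosome biogenesis had 11 of 20 lower (median -0.03, and 0.04 without combination replicate 1). In bulk RNA, fewer cells of a kind, such as cycling cells, and less RNA per cell cannot be told apart.

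The BCL2 family holds the target of venetoclax. BCL2 was at 73.9 and 71.1 CPM with CSA and 65.9 and 58.1 CPM with the combination, without overlap (log2 fold change -0.23, SE 0.11, edgeR adjusted p = 0.453). MCL1, the short-lived survival protein, was at 181 and 184 CPM with CSA and 195 and 193 CPM with the combination (log2 fold change 0.09, SE 0.08). BCL2L1, which encodes BCL-XL, overlapped between groups, at 37.1 and 34.6 CPM with CSA and 35.3 and 36.1 CPM with the combination. BCL2A1 was low in all 4 libraries, at 0.896 to 1.62 CPM. Of the 5 survival genes tested, BCL2L2 was the 1 that passed.

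Among the 10 genes of BAX, BAK and BH3-only proteins 6 were higher and 4 lower, with a median of 0.01. The median was -0.17 without combination replicate 1 and 0.14 without combination replicate 2. None passed in edgeR or DESeq2, and 2 were higher and 0 lower at an unadjusted p under 0.05. BCL2L11, which encodes BIM, was at 11.0 and 7.17 CPM with CSA and 64.5 and 22.9 CPM with the combination. Both combination libraries were above both CSA libraries but differed from each other by more than 2-fold (log2 fold change 2.27, SE 0.59, edgeR adjusted p = 0.340). BAX, PMAIP1 (NOXA) and BBC3 (PUMA) gave -0.12 (SE 0.10), 0.09 (SE 0.13) and -0.07 (SE 0.28). Of 14 genes of apoptosis execution and caspase inhibition 8 were higher (median 0.08, 0.15 without CSA replicate 2 and 0.02 without combination replicate 2), with 4 higher and 0 lower at an unadjusted p under 0.05. BIRC3, an inhibitor of apoptosis that NF-kB drives, was at 3.26 and 3.70 CPM with CSA and 5.72 and 6.20 CPM with the combination.

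The PI3K, AKT and mTOR pathway, which the title of the series names, is controlled mainly by phosphorylation, which RNA does not show. Of 13 PI3K subunits and phosphatases 8 were lower and 5 higher (median -0.10, and 0.01 without combination replicate 2). At an unadjusted p under 0.05, 3 were lower (PIK3CG, PIK3R1 and INPP5D) and 0 higher. PIK3CG, the catalytic subunit that G protein-coupled receptors engage, was at 45.3 and 45.7 CPM with CSA and 29.8 and 26.6 CPM with the combination (log2 fold change -0.69, SE 0.11, edgeR adjusted p = 0.168). DESeq2 called PIK3CG lower. PIK3R1 and INPP5D gave -0.40 (SE 0.10) and -0.22 (SE 0.08), and PIK3CA and PIK3CD gave -0.10 (SE 0.12) and -0.11 (SE 0.08).

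Of 22 genes of the AKT and mTOR complexes 12 were higher and 10 lower, with a median of 0.01 (0.08 and -0.04 without combination replicates 1 and 2), and 0 passed with edgeR or DESeq2. At an unadjusted p under 0.05, 2 were lower and 0 higher. AKT1 was at 141 and 138 CPM with CSA and 126 and 156 CPM with the combination, with overlap. AKT2 was at 157 and 166 CPM with CSA and 112 and 136 CPM with the combination (log2 fold change -0.38, SE 0.12). MTOR gave -0.07 (SE 0.10), and the inhibitor genes EIF4EBP1 and DDIT4 gave 0.13 (SE 0.08) and 0.33 (SE 0.22). FOXO-responsive genes, which AKT activity holds down, were lower for 10 of 17 (median -0.13, and -0.06 without combination replicate 2), with SESN3 at -0.91 (SE 0.18).

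FLT3 signal and STAT5 targets were divided, with 8 of 17 higher and 9 lower (median -0.00, and -0.09 and 0.05 without combination replicates 1 and 2), and FLT3 gave 0.02 (SE 0.08). Of 13 ERK feedback genes 8 were higher, with a median of 0.24, which was 0.13 without combination replicate 2. EGR1, an immediate early gene, was at 27.5 and 33.5 CPM with CSA and 13.6 and 22.5 CPM with the combination. The leukemia programme of KMT2A fusions had 7 of 13 higher (median 0.02, and -0.06 without combination replicate 2), with MEIS1 at -0.01 and HOXA9 at 0.31 (SE 0.21). MYC was at 44.1 and 45.9 CPM with CSA and 49.3 and 63.2 CPM with the combination (log2 fold change 0.32, SE 0.15).

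Both groups received cyclosporine, and the genes of its targets are given for that setting. Of 10 genes of calcineurin, NFAT and RCAN 6 were higher and 4 lower, with a median of 0.07 that was 0.00 without CSA replicate 2. NFAT5, the osmotic stress member that calcineurin does not control, was at 21.3 and 49.5 CPM with CSA and 6.53 and 6.95 CPM with the combination. The CSA libraries differed by more than 2-fold in this gene, and it did not pass (log2 fold change -2.39, SE 0.45, edgeR adjusted p = 0.234). RCAN1, a calcineurin-responsive inhibitor, was at 47.2 and 47.1 CPM with CSA and 42.3 and 36.2 CPM with the combination. PPP3CA, the catalytic subunit, and NFATC1 gave 0.26 (SE 0.26) and 0.15 (SE 0.10). Of 14 cyclophilins 9 were higher (median 0.06, and 0.03 and 0.10 without CSA replicates 1 and 2), and PPIA, the main target, gave -0.19 (SE 0.10). Of 7 ABC transporters 5 were lower (median -0.03, and -0.13 and 0.03 without combination replicates 1 and 2), and ABCB1, the multidrug pump that cyclosporine inhibits, had too few counts to test.

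Inflammatory genes under NF-kB were mostly higher. Of 25, 21 were higher and 4 lower, with a median of 0.24, and 5 were higher and 0 lower at an unadjusted p under 0.05. None passed, and DESeq2 called CCL2 higher. CCL2, a chemokine for monocytes, was at 8.71 and 8.17 CPM with CSA and 18.0 and 20.3 CPM with the combination (log2 fold change 1.18, SE 0.14, edgeR adjusted p = 0.104). CXCL8, a chemokine for neutrophils, was at 8.14 and 7.68 CPM with CSA and 11.6 and 12.3 CPM with the combination. MYD88, the adaptor of toll-like receptors, was at 16.2 and 12.7 CPM with CSA and 41.2 and 51.3 CPM with the combination (log2 fold change 1.68, SE 0.18, edgeR adjusted p = 0.0871). TLR4, the receptor for lipopolysaccharide, lay on the other side, at 19.3 and 19.7 CPM with CSA and 13.4 and 12.6 CPM with the combination. Of the 14 toll-like receptor and NLRP genes 7 were higher and 7 lower (median -0.06, and 0.03 without combination replicate 2).

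The AHR-responsive genes included CYP1B1. Of 9, 7 were higher and 2 lower, with a median of 0.29, which was 0.69 with CSA replicate 2 left out and 0.66 with combination replicate 1 left out, and 5 were higher and 0 lower at an unadjusted p under 0.05. CYP1A1, the classical AHR target, was at 1.86 and 1.07 CPM with CSA and 3.70 and 4.75 CPM with the combination (log2 fold change 1.53, SE 0.33, edgeR adjusted p = 0.260). TIPARP, an AHR-induced repressor, was at 26.1 and 19.8 CPM with CSA and 47.5 and 42.3 CPM with the combination (log2 fold change 0.97, SE 0.17). NQO1, a quinone reductase shared with NRF2, was at 41.7 and 40.8 CPM with CSA and 68.7 and 65.4 CPM with the combination (log2 fold change 0.70, SE 0.09, edgeR adjusted p = 0.126). The groups of these 3 genes did not overlap, and DESeq2 called all 3 higher. AHRR, the repressor of the receptor, was at 210 and 201 CPM with CSA and 269.7 and 233 CPM with the combination. The xenobiotic response element TNGCGTG was in 2 of 8 matched promoters, AHRR and NQO1, against 5.51% of all promoters and 7.36% of those of tested genes. The match in AHRR, 32 bases before the start, is shown as the upstream example.
AHRR, chr5:321672-321698, plus strand: ggcgggcggcTCGCGTGccggggtggg

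The medians of monocyte and granule genes were on opposite sides of 0. Of 27 genes of monocyte and macrophage differentiation, 16 had enough counts to be tested. CD14, CD163 and MRC1 were among those that did not. Of the 16, 10 were higher and 6 lower, and 6 were higher and 1 lower at an unadjusted p under 0.05. The median was 0.19, and it ran from 0.12 with CSA replicate 2 left out to 0.26 with combination replicate 2 left out. CYBB, the catalytic subunit of the phagocyte oxidase, was at 4.55 and 4.57 CPM with CSA and 7.73 and 8.99 CPM with the combination (log2 fold change 0.87, SE 0.16). CD68, a lysosomal protein of macrophages, was at 76.4 and 74.5 CPM with CSA and 98.5 and 136 CPM with the combination. NCF1, another oxidase subunit, gave 1.26 (SE 0.17), and is uncertain because near-identical copies exist in the genome. CSF1R, the receptor for the macrophage growth factor, lay on the other side, at 58.6 and 54.6 CPM with CSA and 48.3 and 44.9 CPM with the combination (log2 fold change -0.28, SE 0.10). LYZ, lysozyme, was at 423 and 501 CPM with CSA and 357 and 433 CPM with the combination, with overlap.

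Of 11 azurophil granule and progenitor genes 7 were lower and 4 higher, with a median of -0.22, which was -0.14 without combination replicate 2. ELANE, neutrophil elastase, was at 223 and 203 CPM with CSA and 156 and 135 CPM with the combination (log2 fold change -0.55, SE 0.11). DESeq2 called ELANE, PRTN3, AZU1 and MS4A3 lower. Myeloid transcription factors were lower for 12 of 18 (median -0.11), with CEBPB, a driver of monocytic genes, at 0.53. HLA class II genes were lower for 8 of 10, with a median of -0.06 that was -0.32 without combination replicate 1 and -0.00 without combination replicate 2. CIITA, which switches them on, was at 14.2 and 15.1 CPM with CSA and 9.06 and 7.19 CPM with the combination. Integrins, matrix and adhesion had 12 of 16 higher (median 0.12), where THBS1 rose and the gelatinase MMP9 gave 1.01 (SE 0.21).

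Protein folding and redox genes were higher in part. Of 27 ER chaperone and degradation genes 19 were higher (median 0.11), with 8 higher and 2 lower at an unadjusted p under 0.05, and CREB3L2 fell. HYOU1 and DNAJB9, chaperones of the unfolded protein response, gave 0.46 and 0.53. Of 21 NRF2 targets 17 were higher (median 0.16) with 6 higher and 2 lower at an unadjusted p under 0.05. HMOX1, heme oxygenase, was 1 of the lower genes, at 10.6 and 12.1 CPM with CSA and 7.73 and 7.30 CPM with the combination. Iron and ferroptosis genes were higher for 8 of 13 (median 0.09, and 0.17 without CSA replicate 2), with FTH1, the ferritin heavy chain, at 487 and 537 CPM with CSA and 673 and 817 CPM with the combination. TFRC, the transferrin receptor, was at 287 and 244 CPM with CSA and 487 and 363 CPM with the combination.

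In the remaining lists no member passed. Lysosome and autophagy genes were higher for 27 of 36 (median 0.11), 5 of them and 0 of the lower ones at an unadjusted p under 0.05. Proteasome subunits were higher for 16 of 28 (median 0.02, and -0.07 and 0.12 without combination replicates 1 and 2). Heat shock proteins were higher for 8 of 19 (median -0.03, -0.08 without combination replicate 2 and -0.01 without CSA replicate 2) and interferon-stimulated genes for 19 of 33 (median 0.05, and 0.14 without combination replicate 2). Cytosolic ribosomal proteins were lower for 28 of 39 (median -0.07, and -0.16 and 0.02 without combination replicates 1 and 2). The 5 B cell genes that could be tested were all lower, and IGLL1, a surrogate light chain gene of B cell precursors, was at 2.01 and 1.98 CPM with CSA and 0.390 and 0.314 CPM with the combination (log2 fold change -2.48, SE 0.32, edgeR adjusted p = 0.121). The tested T and NK, erythroid and stromal markers numbered 2, 3 and 2.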

How the data were processed

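The authors deposited whole-number counts per gene in 1 table. Per the submitters' processing notes STAR, RSEM, DESeq2 and hg38 were used, and versions, roles and use of strand are not given in the sources used here. Columns were matched to samples by the description in the labels, and 2 columns with no sample were not used. Of 20263 genes, 20148 carried a symbol and 4922 had 0 counts in the 4 libraries.

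Counts were tested with edgeR 4.0.16 in R 4.3.3 (TMM, filterByExpr, robust quasi-likelihood fit, two-sided) on the 2 CSA and 2 combination libraries, with Benjamini-Hochberg adjustment over 12565 genes. Low counts were even numbers more often than odd ones (64.8% to 65.7% of counts of 1 to 20, against 49.0% to 51.0% of counts of 100 or more), and the cause was not tested. Replicates of a group differed beyond sampling noise. limma 3.58.1 and DESeq2 1.42.0 were alternatives. Exon overlaps were read from GENCODE 29, and promoters from RefSeq (GRCh38.p14). The fit was also run on simulated counts. Their spread followed only the estimated trend with expression level, without the differences between genes around it. The changed genes were drawn from those at a mean of 5 CPM or more. In that setting the fit recovered 89 of 100 genes changed 2-fold and 100 of 100 changed 4-fold, with 14 false calls. Genes of the real data vary around the trend, so these shares do not give the power of the comparison reported here.

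Named were genes that passed at 5 CPM or more without overlap, the 3 members of each list with the smallest p where they bear on the text, and 36 fixed genes, of which 35 could be tested and 3 passed. Other named members and overlapping neighbours were chosen after their values were seen. Members and lists were chosen with earlier results of these data known. Some genes and 1 list are not reported here.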

Additional observations from a re-analysis of the deposited data

How the results depend on the processing

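Against 24 genes in the reported fit, 285 passed with DESeq2, 12 with scaling by library size alone (5 higher and 7 lower), 42 without a filter on low counts, 16 at 5 CPM or more and 6 against a minimum fold of 1.5. Without one library the number ran from 4 to 110. With all 6 libraries 0 genes passed, 462 having an unadjusted p under 0.05. Limma-voom gave 23, DESeq2 size factors in edgeR 24, removal of mitochondrial genes 24, 5 libraries without venetoclax replicate 2 24, no robust fit 17, and loci summed, which was chosen after seeing the data, 18. Replicate numbers are shared, but the labels do not say that they pair samples (correlation of deviations 0.16), and the replicate block gave 53 genes (31 higher and 22 lower). Many of the 129 named genes that did not pass were named for a small p, which favours a steady direction. Of the 129, 119 kept their direction under every setting. The 10 others were close to 0 or moved with 1 library, and the cause was not tested. Leaving out 1 library at a time, the log2 fold change ran from -0.152 to 0.0945 for LDHB, -0.00204 to 0.374 for HIF1A, -0.0526 to 0.0448 for BCL2L1, -0.352 to 0.178 for BBC3, -0.147 to 0.155 for AKT1, -0.160 to 0.0182 for MTOR, -0.0117 to 0.0467 for FLT3, -0.0343 to 0.0228 for MEIS1, -0.0116 to 0.577 for HOXA9 and -0.0422 to 0.636 for PPP3CA. With library size alone it was -0.0370 for AKT1 and -0.0224 for FLT3. Of 48 list medians, 14 changed sign under at least 1 setting, among them hypoxia, BAX, BAK and BH3-only genes, PI3K, AKT and mTOR, FLT3 and STAT5, ABC transporters, mitosis, MYC and ribosome biogenesis, ribosomal proteins, toll-like receptors, the KMT2A programme, proteasome and MV4-11 markers. With 2 libraries a group, 1 library bears on every p-value.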
